A study of Homo sapiens with 7 samples.

Results

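Binding of HNF6, GATA6 and NKX6.1 was described around 5 genes of the TEAD and YAP pathway, TEAD1, YAP1, LATS2, CTGF and CYR61, in human cells on the way to pancreas. A region was taken as belonging to a locus when its midpoint lay within 100 kb of the gene on hg19, and the rule used gene names and positions and no score. This gave 80 of the 86081 distinct regions in 4 peak lists. They comprised 65 of 64919 HNF6 regions of day 10, 3 of 6285 listed GATA6 regions of day 10, 12 of 14627 NKX6.1 regions of day 13 and 0 of 250 HNF6 regions of day 5. The windows together spanned 1488 kb. At their edges, the outermost HNF6 region of day 10 inside a window lay 98.3 kb from YAP1 (score 38), and the first one outside lay 113.9 kb from YAP1 (score 38).

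The lists come from chromatin immunoprecipitation and sequencing in CyT49, a line of human embryonic stem cells, after differentiation in vitro. HNF6 (ONECUT1) and GATA6 were profiled on day 10, NKX6.1 on day 13, in cells labelled as pancreatic endoderm or progenitor stage, and HNF6 also on day 5, in gut tube endoderm. All lists come from unmodified cultures of this 1 line, with 1 library per factor and day. No difference below therefore has a replicate check, no p-value is given, and intervals cover counting error only. Peak lists hold no expression values, so the labelled stages could not be checked against marker genes, and read depth is unknown. The protocol text of every library names an antibody against NKX6.1, whereas titles and antibody labels name HNF6, GATA6 and NKX6.1. Titles and labels were followed here, although the title of the day 5 library reads HNF alone.

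TEAD1 is a DNA-binding factor that has little activity alone and recruits the coactivator YAP1, which has no DNA-binding domain of its own. The kinase LATS2, the last kinase of the Hippo cascade, phosphorylates YAP1 and so keeps it out of the nucleus. CTGF (now CCN2) and CYR61 (now CCN1) encode secreted matricellular proteins and are widely used as readouts of YAP and TEAD activity. In the embryonic human pancreas, TEAD and YAP act at enhancers of multipotent progenitors, and YAP is lost as endocrine cells form.

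The clearest region at a gene start was at CTGF. On day 10 an HNF6 region at chr6:132272504-132272806 (hg19) reached from 288 bp upstream of the CTGF start to 14 bp inside the gene. Its score of 289 lay at percentile 85.8, meaning that 85.8% of the HNF6 regions of day 10 had a score at or below it. It was the strongest of the 4 HNF6 regions at this locus, and neither a listed GATA6 region nor an NKX6.1 region overlapped it. The promoter of CTGF is shown because its TEAD sites are the textbook example of the pathway's targets. The 250 bases before the RefSeq start of CCN2 (GRCh38.p14, chr6:131951373-131951622, minus strand, 5′ to 3′) read as follows, with capitals for GGAATG, the core of the TEAD motif, and for ATCAAT, a core of the HNF6 motif, searched on both strands.
CCN2 promoter: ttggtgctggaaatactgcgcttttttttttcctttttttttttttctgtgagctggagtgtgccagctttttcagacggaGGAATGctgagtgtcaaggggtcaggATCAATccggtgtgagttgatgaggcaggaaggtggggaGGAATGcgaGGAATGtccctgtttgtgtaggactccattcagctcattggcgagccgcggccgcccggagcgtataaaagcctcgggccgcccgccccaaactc

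The stretch held 3 copies of GGAATG, at 169 to 164, 104 to 99 and 95 to 90 bases upstream of the start, and 1 copy of ATCAAT at 143 to 138 bases upstream. The copies did not overlap each other. Of 35114 RefSeq promoters of the same length, 11.9% held GGAATG on either strand, 0.0826% held at least 3 copies, and 5.58% held ATCAAT. The core of the motif of zinc finger GATA factors, AGATAA, had no match in this stretch and was held by 9.17% of all promoters. The homeodomain core bound by NKX6 factors, TAATTA, had no match either and was held by 4.35%. The YAP1 promoter had 1 copy of GGAATG, at 162 to 157 bases upstream, and LATS2 had none of the 4 motifs in these bases. TEAD1 and CCN1 were not matched in the promoter table. A match is a description of the letters and not a measured site. The binding region is placed by hg19 and the promoter letters by GRCh38.p14, each relative to its own annotated start, and the builds were not aligned.

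HNF6 regions of day 10 were frequent at the DNA-binding factor and its coactivator, and sparser at the kinase and the targets. TEAD1 had 28 and YAP1 had 24, against 3 at LATS2, 4 at CTGF and 6 at CYR61. Per 100 kb of window this was 5.95 regions at TEAD1 (exact Poisson 95% interval 3.96 to 8.60) and 7.43 at YAP1 (4.76 to 11.1). The density was 1.04 at LATS2 (0.214 to 3.04), 1.97 at CTGF (0.536 to 5.04) and 2.95 at CYR61 (1.08 to 6.43). The mean of the whole HNF6 list was 2.13 per 100 kb. The intervals of TEAD1 and YAP1 lay above that mean and those of the other genes included it. Neighbouring regions are not independent, which makes such intervals too narrow.

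**Figure D1:**
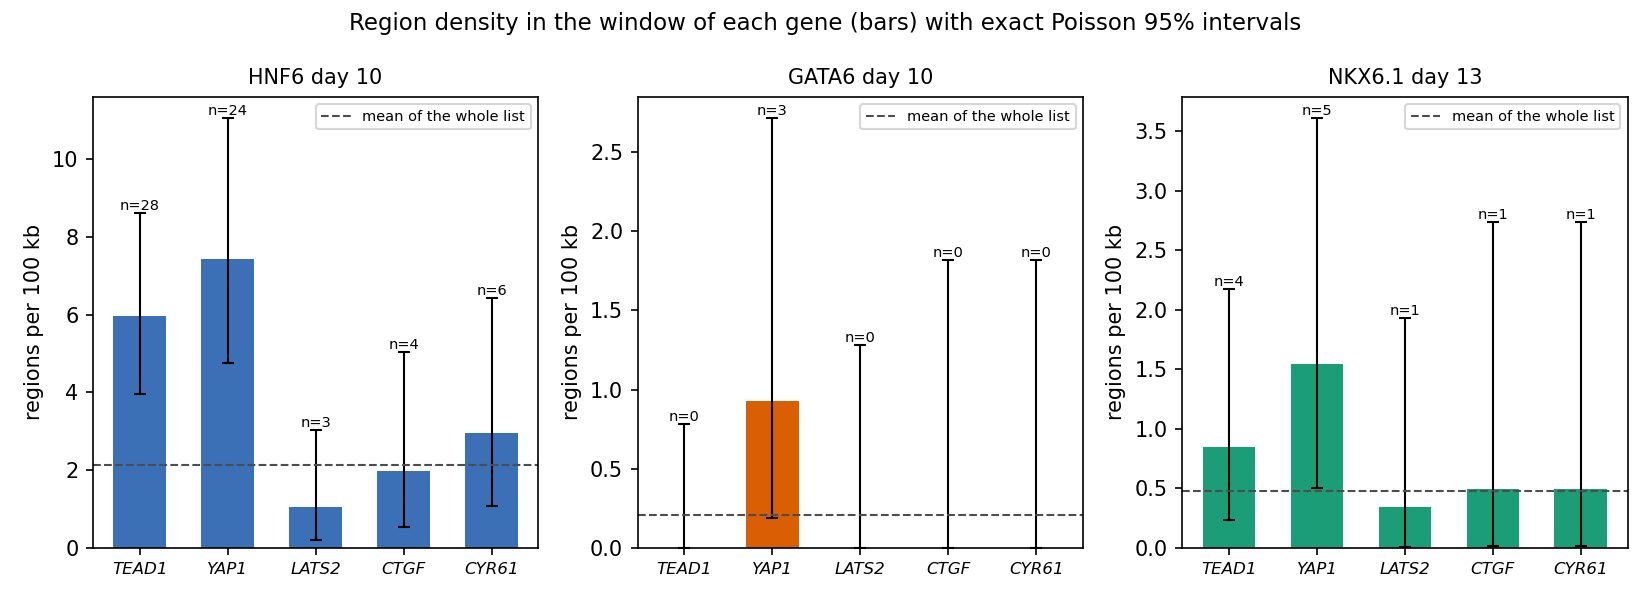
Regions per 100 kb (vertical axis) in the window of each gene (horizontal axis) for HNF6 and GATA6 on day 10 and NKX6.1 on day 13, with exact Poisson 95% intervals as error bars, counts above them and the mean of each whole list as a dashed line. HNF6 reached 5.95 at TEAD1 and 7.43 at YAP1, against a list mean of 2.13, and GATA6 was listed at YAP1 alone among the 5 genes.

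To read these counts against the genome, every chromosome was divided end to end into windows of the same length as each locus. At least 28 HNF6 regions were held by 1.54% of the 6476 windows as long as that of TEAD1, whose median was 9. At least 24 were held by 0.678% of the 9438 windows as long as that of YAP1, with a median of 6. These windows form a fixed grid, whereas each locus window is centred on its gene. No grid window that touched TEAD1 or YAP1 reached 28 or 24, so such counts depend on placement. LATS2 stood at the other side, since 77.7% of windows of its length held 3 or more (median 6). CTGF and CYR61 were in the middle of the genome: 53.0% of windows held 4 or more and 31.2% held 6 or more, with a median of 4 for both. These windows include stretches with few genes, whereas each locus holds a gene by its choice. Without the windows that had no HNF6 region at all, the shares for TEAD1 and YAP1 were 1.69% and 0.750%.

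**Figure D2:**
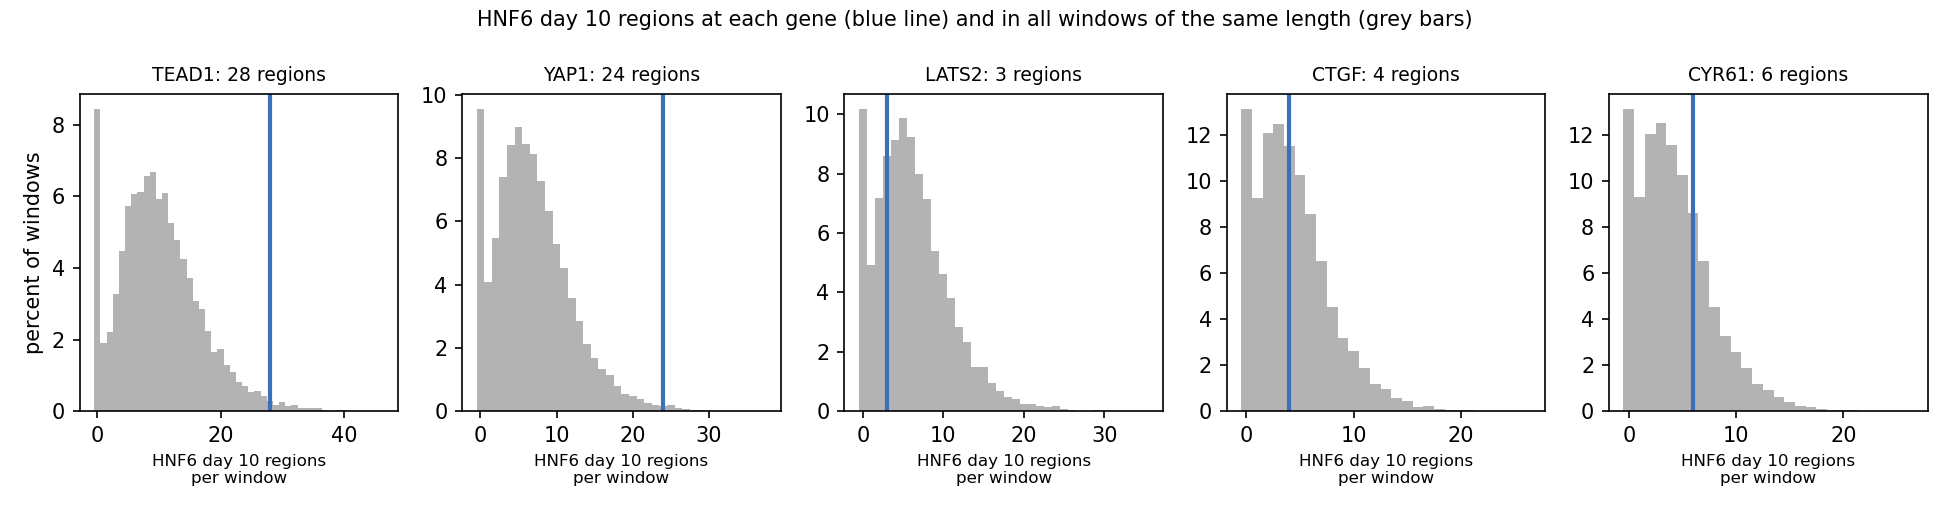
Grey bars give the percent of genome windows (vertical axis) with each number of HNF6 regions of day 10 (horizontal axis), for windows as long as that of the named gene, and the blue line marks the gene's own number. TEAD1 (28) and YAP1 (24) lie in the right tail, LATS2 (3) left of the median of 6, and CTGF (4) and CYR61 (6) near the median of 4.

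At TEAD1 (hg19 chr11:12695969-12966284, plus strand), 20 of the 28 HNF6 regions lay within the gene, 5 upstream and 3 downstream. The gene took up 270 of the 470 kb of its window. By RefSeq gene order its protein-coding neighbours are PARVA upstream and RASSF10 downstream. The strongest was at chr11:12767185-12767938, 71.6 kb into the gene, with a score of 1119 (percentile 98.0). It was also the widest of all 65, at 754 bp against a median of 257 bp, and 1 of 2 among the 65 that were deposited with several summit rows, as were 2.11% of the list. The next lay downstream of the gene, at chr11:13042994-13043517 (score 603, percentile 94.3). The other 3 of the 5 strongest were chr11:12716939-12717311 (score 291), 21.2 kb into the gene, chr11:13031690-13032073 (score 253), downstream, and chr11:12850045-12850532 (score 252), 154 kb into the gene. The region over the TEAD1 start was weak: chr11:12695969-12696168 began at the first base of the gene and had a score of 33 (percentile 12.2). Scores thus ran from 22 to 1119 at this locus, and 13 of the 28 regions were below the median score of the list.

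YAP1 (chr11:101981192-102104154, plus strand) had 13 HNF6 regions within the gene, 6 upstream and 5 downstream. The gene took up 123 of the 323 kb of its window. Its protein-coding neighbours are CFAP300 upstream and BIRC3 downstream. Inside the gene the density was 10.6 per 100 kb, the highest of the 3 long genes, against 7.40 inside TEAD1 and 0 inside LATS2. The strongest regions were mostly outside the gene. They were chr11:102147755-102148201, downstream (score 710, percentile 95.5), chr11:101917792-101918166, 63.2 kb upstream of the start (score 522, percentile 93.0), and chr11:102143021-102143412, downstream (score 439, percentile 91.3). Within the gene the strongest was chr11:102010577-102010891, 29.5 kb from the start (score 436, percentile 91.3), and the fifth of the locus was chr11:102125899-102126207, downstream (score 386, percentile 89.9). The 5 downstream regions had a median percentile of 89.9 and the 13 within the gene one of 45.7. The downstream group at YAP1 and the 3 downstream regions at TEAD1 (median percentile 83.6) lie toward the next gene. The upstream regions likewise lie toward a neighbour. Assignment of either kind to YAP1 or TEAD1 rests on distance alone, since hg19 positions of the neighbours were not used here.

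**Figure D3:**
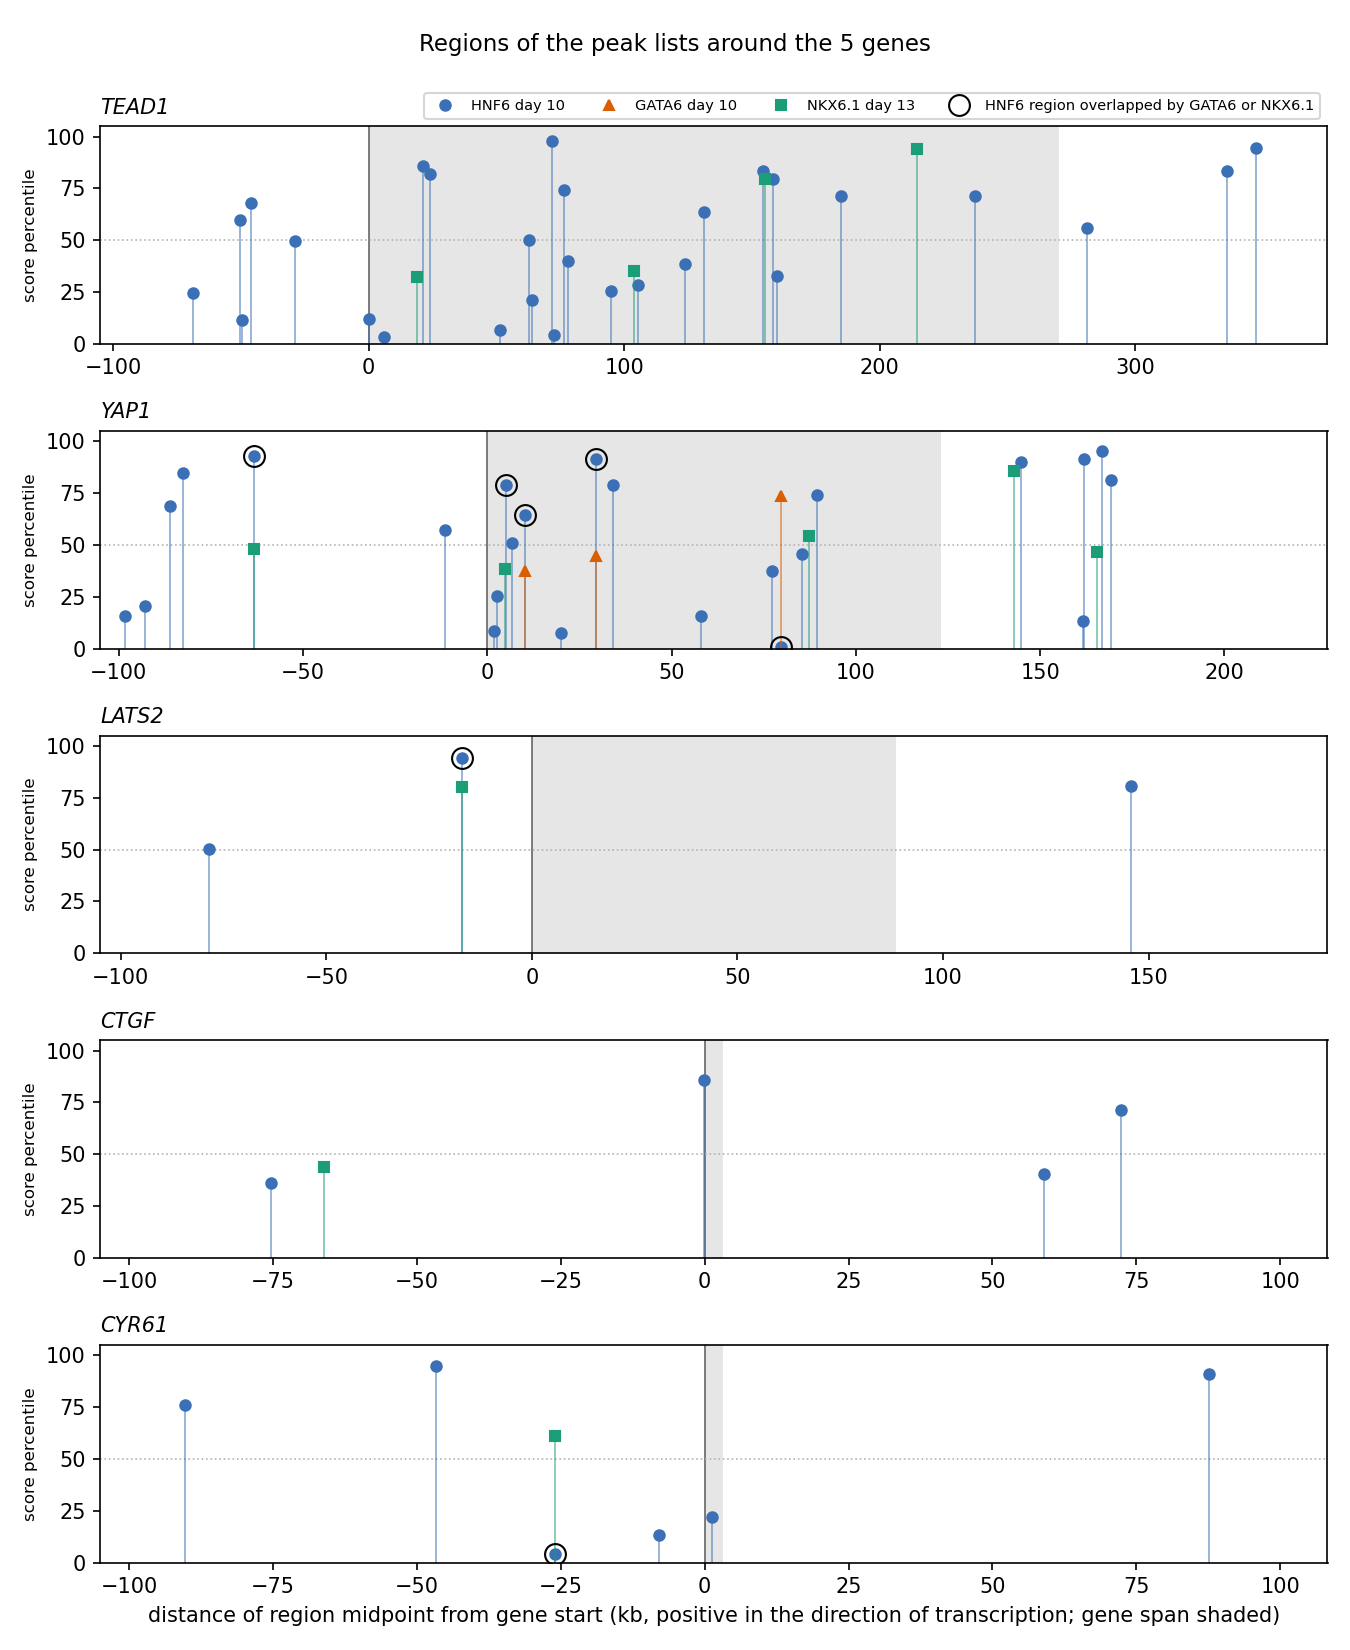
Position of each region (horizontal axis, kb from the gene start in the direction of transcription, gene span shaded) and its score percentile within its own list (vertical axis) for HNF6 day 10, GATA6 day 10 and NKX6.1 day 13, with HNF6 regions overlapped by GATA6 or NKX6.1 ringed. TEAD1 carries 28 HNF6 regions and no ring, YAP1 carries 24 with 5 rings, and LATS2 has no region within the gene.

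LATS2 (chr13:21547176-21635722, minus strand) had no region of any list inside the gene. The longest stretch between neighbouring HNF6 midpoints was 163 kb and contained the whole gene. Of its 3 HNF6 regions, the strongest was chr13:21652517-21652915, 17.0 kb upstream of the start, with a score of 598 (percentile 94.2). The others were at chr13:21489862-21490237 (score 215), downstream, and chr13:21714262-21714471 (score 79), 78.6 kb upstream. Few as they were, all 3 had at least the median score of the list. SAP18 is the upstream and XPO4 the downstream neighbour of LATS2. Assignment of the 3 regions to LATS2 also rests on distance alone.

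Among the targets, CTGF (chr6:132269316-132272518, minus strand) had its 3 other HNF6 regions 59.0 kb or more from the start. They were chr6:132200031-132200278 (score 142, percentile 71.1) and chr6:132213433-132213620 (score 65, percentile 40.3), both downstream, and chr6:132347566-132348138 (score 58, percentile 36.4), upstream. The last of these was wide (573 bp) for its low score. CYR61 (chr1:86046444-86049648, plus strand) had the opposite layout, with its strong regions far away and weaker ones nearer the start. The strong ones were chr1:85999600-85999935, 46.7 kb upstream (score 661, percentile 94.99), chr1:86133856-86134146, 87.6 kb downstream of the start (score 433, percentile 91.2), and chr1:85956057-85956302 (score 176, percentile 76.1). A region within the gene, chr1:86047685-86047880, had a score of 44 (percentile 21.8), and one 7.86 kb upstream, chr1:86038489-86038677, had a score of 34 (percentile 13.1). The weakest, chr1:86020367-86020543 (score 23, percentile 4.09), lay farther out than these, 26.0 kb upstream. CTGF lies between MOXD1 and ENPP1, and CYR61 between DDAH1 and ZNHIT6. The spans of these neighbours on hg19 were not used here, so whether a region lies inside one of them was not examined. Assignment of regions outside CTGF and CYR61 to these genes rests on distance alone.

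Near the gene starts, HNF6 was found within 10 kb at all of these genes except LATS2. The share over all gene starts was not computed, since hg19 starts of other genes were not used here, so this count has no background. YAP1 had 4 such regions, TEAD1 and CYR61 had 2 each and CTGF had 1. Those of YAP1 all lay inside the gene. The nearest was chr11:101982952-101983141, 1.85 kb from the start (score 30, percentile 8.62), so no HNF6 region covered the YAP1 start. The region over the CTGF start ranked above both of those at TEAD1, both at CYR61 and all 4 at YAP1, the highest of which was at percentile 79.0.

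**Figure D4:**
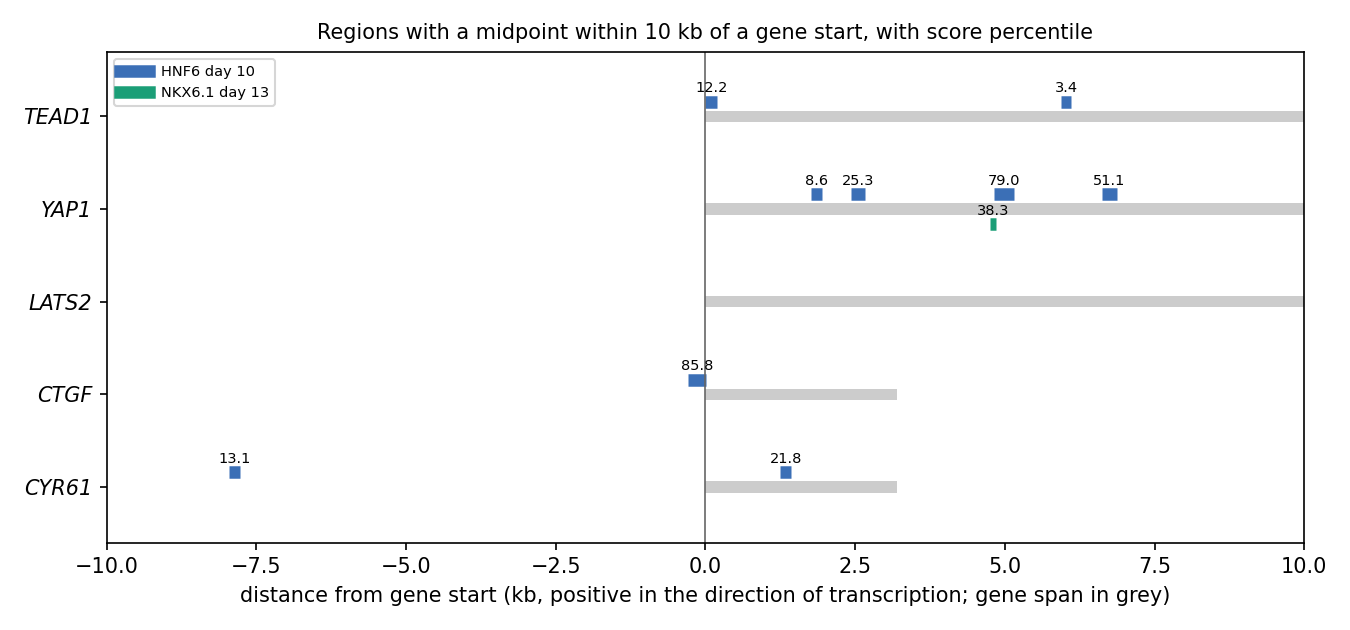
HNF6 regions of day 10 and NKX6.1 regions of day 13 with a midpoint within 10 kb of a gene start, drawn to scale in kb from the start (horizontal axis) for each gene (vertical axis), with score percentiles printed above them. The CTGF start is covered by a region at percentile 85.8 and the TEAD1 start by one at percentile 12.2.

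HNF6 scores at the loci ran from 16 to 1119, or percentile 0.759 to 98.0, in a list that ran from 13 to 4510. The 65 regions had a median percentile of 57.4 and a median score of 96, against 79 for the list. Above percentile 90 stood 9 of 65, or 13.8% (Wilson 95% interval 7.46 to 24.3), against 10.0% of the list, and below the list's median 28 of 65, or 43.1% (31.8 to 55.2), against 49.6%. Both intervals contain the value of the list. Another HNF6 region lay within 10 kb of 40 of the 65, or 61.5% (49.4 to 72.4), against 49.2% of the list. All of these but 2, both at CYR61, were at TEAD1 (18) and YAP1 (20), the loci dense in HNF6. Being a neighbour is mutual, so the regions are not independent and this interval is too narrow.

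HNF6 on day 5 was absent from all 5 windows. No HNF6 region at the loci was shared by both days, 0 of 65 (Wilson upper bound 5.58%), against 0.347% of the whole day 10 list. With only 250 regions on day 5, the mean density of that list would put 0.122 regions in the windows, so a lower density than the list's could not be detected at this list length. The nearest day 5 region was 833 kb from TEAD1, 1582 kb from CYR61 and 6306 to 16391 kb from the other genes.

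GATA6 was listed at YAP1 and at none of the other genes. At the mean density of the list the 5 windows together would hold 3.06 regions, close to the 3 found, and windows of the lengths of LATS2, CTGF and CYR61 had a median of 0. All 3 regions lay inside the gene, where the distance from its start was 10.1, 29.5 and 79.8 kb. They were chr11:101991225-101991440 (score 74, percentile 37.2 of the GATA6 list), chr11:102010584-102010817 (score 89, percentile 44.7) and chr11:102060770-102061190 (score 217, percentile 73.6). Each overlapped an HNF6 region, as does every region of the deposited GATA6 list, so that overlap is fixed by the list. Windows of the length of YAP1 held 3 or more listed GATA6 regions in 5.68% of cases. The 64 of these windows with at least 24 HNF6 regions, as at YAP1, had a median of 3. Counted from HNF6, GATA6 was listed at 3 of 65 regions, or 4.62% (1.58 to 12.7), against 9.66% of the list, a value inside the interval.

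The 3 shared regions at YAP1 differed widely in their HNF6 score. The middle one was strong for HNF6 (score 436, percentile 91.3), and its GATA6 region lay entirely inside the HNF6 region. The first had an HNF6 score of 116 (percentile 64.3). The third was the weakest HNF6 region of all 65, at chr11:102060815-102061092 with a score of 16 (percentile 0.759), under the strongest of the 3 GATA6 regions. Midpoints lay 36.0, 33.5 and 26.5 bp apart. HNF6 regions this weak were not poor in GATA6 over the whole list. Of 493 with a score of at most 16, this one included, 53 were shared with GATA6, which is 10.8% (8.31 to 13.8).

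TEAD1 combined many HNF6 regions with no listed GATA6 region and no overlap with NKX6.1. Of the 100 genome windows of its length with at least 28 HNF6 regions, 1 held no listed GATA6 region, and the median was 4. Every listed GATA6 region overlaps an HNF6 region of day 10, so listed ones can lie only where HNF6 regions do. No overlap between HNF6 and NKX6.1 was more common, in 26 of the 100. The nearest listed GATA6 region lay 829 kb from TEAD1. The GATA6 list is partial: its peak numbers, which increase along each chromosome, reach 19404, of which 32.4% are listed. Between the listed peaks on either side of the TEAD1 window, 2148 kb apart, 19 numbered peaks were not analysed here, and whether any lies at TEAD1 is unknown. The same count was 5 around YAP1, 8 around CTGF and 4 around CYR61, over 480, 1043 and 993 kb. No such count was made for LATS2, which has no listed GATA6 peak before its window on chromosome 13.

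NKX6.1 on day 13 was found at all 5 loci, with 5 regions at YAP1, 4 at TEAD1 and 1 each at LATS2, CTGF and CYR61. Together this was 0.806 per 100 kb (exact Poisson 0.417 to 1.41), against 0.479 in the whole list. Windows of the same length held at least as many in 5.01% of cases for YAP1, 24.2% for TEAD1, 65.4% for LATS2, 55.3% for CTGF and 55.3% for CYR61. Among windows with at least as many HNF6 regions as the locus, the median was 4 NKX6.1 regions for YAP1 and 5 for TEAD1. The strongest was chr11:12910410-12910558, 215 kb into TEAD1 (score 219, percentile 93.9 of the NKX6.1 list). It was also the one farthest from HNF6, with the nearest HNF6 midpoint 22.8 kb away. The other NKX6.1 regions of TEAD1 were chr11:12850967-12851089 (score 102, percentile 79.5), chr11:12799922-12800020 (score 41) and chr11:12714833-12714939 (score 40), all inside the gene.

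At YAP1 the strongest NKX6.1 region, chr11:102123903-102124048 (score 125, percentile 85.4), lay 19.8 kb past the end of the gene. The others were chr11:102146599-102146676 (score 49), chr11:102068322-102068401 (score 56), chr11:101985936-101986042 (score 43) and chr11:101917899-101917988 (score 52). The single regions were chr13:21652654-21652744 at LATS2 (score 104, percentile 80.2), chr6:132338686-132338764 at CTGF (score 48, percentile 43.8) and chr1:86020383-86020469 at CYR61 (score 64, percentile 60.9). Over the 12 regions the median percentile was 51.0, at the middle of the list.

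NKX6.1 and HNF6 overlapped at 4 places: 2 at YAP1, 1 at LATS2 and 1 at CYR61. Counted from HNF6 this was 4 of 65 regions, or 6.15% (2.42 to 14.8), against 3.2% of the list, and from NKX6.1 it was 4 of 12, or 33.3% (13.8 to 60.9), against 14.3%. Both list values lie inside the intervals, the second near its lower edge. Windows of the same length held at least as many shared regions in 2.82% of cases for YAP1, 16.9% for LATS2 and 12.4% for CYR61. Of the 64 windows of YAP1 length with at least 24 HNF6 regions, 18 held no shared region. How many of the 64 held at least 2, as YAP1 did, was not counted. At LATS2, the strongest HNF6 region overlapped the only NKX6.1 region of the locus, with midpoints 17.0 bp apart. The YAP1 region 63.2 kb upstream held its NKX6.1 region entirely (HNF6 score 522, NKX6.1 score 52). The pair 4.99 kb into YAP1 (HNF6 score 199, percentile 79.0) touched by 29 bp, with midpoints 190 bp apart. At CYR61 the HNF6 region was weak (score 23, percentile 4.09) and contained the NKX6.1 region.

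Distances from NKX6.1 to HNF6 were mostly short at the loci. The nearest HNF6 midpoint was a median of 1.34 kb away for the 12 regions, against 9.27 kb for the whole NKX6.1 list. It was within 5 kb for 10 of 12, or 83.3% (55.2 to 95.3), against 37.9% of the list, and within 1 kb for 5 of 12, or 41.7% (19.3 to 68.0), against 21.6%. These values include the 4 that overlap. For the 8 that do not, the median was 1.90 kb, against 12.5 kb for such regions of the list, and 6 of 8, or 75.0% (40.9 to 92.9), lay within 5 kb, against 27.5%. The 2 exceptions were 9.13 kb (CTGF) and 22.8 kb (TEAD1) from HNF6. The windows of TEAD1 and YAP1, which held 9 of the 12, were also dense in HNF6 (6.56 per 100 kb together, against the list mean of 2.13), and the part of that density in the short distances was not tested.

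No region held all 3 factors, and 0 of the 3 GATA6 regions overlapped NKX6.1, against 11.8% of the GATA6 list. At that share the 3 regions would give a mean of 0.353, so this absence is near what the list alone gives. When overlapping regions of HNF6 and GATA6 on day 10 and NKX6.1 on day 13 were merged, the loci had 73 merged regions, of which 58 were HNF6 alone, 8 NKX6.1 alone, 4 HNF6 with NKX6.1 and 3 HNF6 with GATA6. The 7 HNF6 regions with a partner had a median percentile of 79.0 and the 58 without one 53.5. In the whole list the medians were 81.2 for 7600 regions with a partner and 47.0 for the rest. At the loci the median width was 315 bp with a partner and 254.5 bp without, and in the whole list it was 351 bp and 253 bp.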

How the data were processed

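For each of the 4 immunoprecipitated libraries the authors deposited 1 peak list, without header, that gives coordinates, a name and a score for every peak. The sources used here do not say what the score measures. Bowtie2 2.3.4.1, MACS2 2.1.1.20160309 and hg19 are named without roles or settings, per the submitters' processing notes. The 3 input libraries were not analysed here. Rows with the same start and end counted as 1 region, which kept the highest score, midpoints stood in for summits, and overlap was counted from 1 bp. Scores were ranked within their own list and not compared between lists. Positions are 1-based. Chromosome lengths for densities and windows were the farthest position in any list. Python 3.11.15, pandas 2.3.3, scipy 1.17.1 and statsmodels 0.14.6 were used. The code was tested on simulated data, and overlaps of whole lists equalled those of bedtools 2.31.1.

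The genes, lists and alternatives were chosen with earlier results of these data known. Named regions are every GATA6, NKX6.1 and shared region, the 5 strongest HNF6 regions per locus and those nearest each start. Exons and introns were not assigned, and other genes of the pathway, planned for the case of hg19 gene positions, were not analysed here. Promoter sequences, gene order and the strands of YAP1, LATS2 and CCN2 are from RefSeq, GRCh38.p14, with 3 of 5 genes matched in the promoter table. The strands of TEAD1 and CYR61 are general knowledge.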

Additional observations from a re-analysis of the deposited data

How the results depend on the processing

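Windows of 50 and 200 kb, regions with at least the median score of each list, rows as deposited, midpoints within 200 bp, overlap that covers 50% of the shorter region and, chosen after seeing the data, 100 kb either side of the gene start gave 53 alternative values, of which 45 stayed within the counting interval or, for counts, within 1.5 times. With regions of at least the median score, which cuts every list by construction, HNF6 regions of day 10 numbered 37 (65 in all), GATA6 regions 1 and NKX6.1 regions 6, the HNF6 share with GATA6 was 0% of 37 and that with NKX6.1 2.70% (1 of 37), and the median percentile was 79.7 for HNF6 and 79.9 for NKX6.1. With 200 kb, NKX6.1 regions numbered 24, of which 7 were at CTGF (1 within 100 kb), and GATA6 regions 5, all at YAP1. Within 100 kb of the gene starts there were 7 NKX6.1 regions, and HNF6 regions of day 10 numbered 17 at TEAD1 and 19 at YAP1, against 2 at LATS2, 4 at CTGF and 6 at CYR61. No alternative gave a region with all 3 factors or a day 5 region at a locus. These values of 0 are among the 45, so that number includes results that stayed at 0 throughout. The density at each single locus was not among the 53 values. No paired analysis was possible because each group has 1 library. Peak lists give no depth, so the weakest regions and the absence of a region cannot be set against it.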
